A study of Mus musculus with 12 samples.

Results

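The cytosolic ribosomal proteins were followed here in bulk mRNA-seq of outer kidney cortex from 12 FVB/N mice. Tg26 mice are hemizygous for a partial HIV-1 transgene that lacks gag and pol and is driven by the viral promoter, and they develop a kidney disease that models HIV-associated nephropathy. C16 is an inhibitor of PKR, the kinase that halts translation when it binds double-stranded RNA. The groups were C16 Tg26 (transgenic, given C16), Tg26 (transgenic, labelled as control for treatment), C16 WT (non-transgenic mice given C16) and WT (non-transgenic controls), with 3 mice each, and all kidneys were taken at 12 weeks of age. C16 was injected intraperitoneally at 10 µg/kg 3 times a week from 6 to 12 weeks of age. Members were the rows of the gene table whose symbol is Rpl or Rps followed by a number and at most 1 letter, or is Rplp0, Rplp1, Rplp2 or Rpsa. This gave 83 genes of 55450, and 80 remained once a total of at least 15 counts over the 12 libraries was asked for (Rpl10l and Rpl39l had 0 counts and Rpl32l had 12). The 80 members are 32 genes of the small and 48 genes of the large ribosomal subunit, and all 80 passed the filter on low counts and were among the 16094 genes tested. Rps3a1, a small-subunit gene, is outside the symbol rule, as are Fau, Rack1 and Rpl36al, which are given apart.

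The cytosolic ribosome is built from a small subunit, which reads the message, and a large subunit, which joins amino acids, and each holds ribosomal RNA and a set of proteins needed in equal number. Messages of ribosomal proteins begin with a tract of pyrimidines (TOP messages), and mTOR sets how much of them is translated, so that protein output can change without a change in message level. Ribosomal protein genes are also known for a very large number of retrotransposed copies in mammalian genomes, some of them nearly identical to the parent message.

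The copies decide what a count of a member means, so the sequences are shown first. Of the 80 members, 71 had at least 1 annotated gene elsewhere with counts whose transcript matched the member at 95% identity or more over 80% or more of the copy. These 369 copies held 11.9% of the counts of members and copies together. The copies held over 10% for 15 members and more than the member itself for 4: Rps2 (92.1% in copies), Rpl29 (92.0%), Rps18 (80.4%) and Rpl5 (66.5%). For 3 of these genes 60 bases of the coding strand are printed with the same bases of the most counted copy, from the GENCODE M21 transcripts (GRCm38), 5′ to 3′, with capitals at bases that differ. The first pair, Rpl5 (chr5:107900502-107909005, + strand) and Gm15500 (chr7:114705217-114706235, - strand), is identical over all 891 coding bases, and the first 60 of them are shown.
Rpl5: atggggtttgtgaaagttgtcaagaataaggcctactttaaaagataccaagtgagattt
Gm15500: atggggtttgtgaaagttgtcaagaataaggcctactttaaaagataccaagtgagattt
Rpl29 (chr9:106429454-106431568, + strand) and Gm13841 (chr5:115801677-115802159, - strand) differ at 3 of 480 aligned coding bases, and coding bases 42 to 101 hold 1 of the differences.
Rpl29: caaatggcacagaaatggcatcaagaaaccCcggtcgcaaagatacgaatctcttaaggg
Gm13841: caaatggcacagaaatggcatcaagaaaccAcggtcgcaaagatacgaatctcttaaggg
Rps18 (chr17:33951999-33956001, - strand) and Gm10260 (chr13:97760072-97760632, - strand) differ at 4 of 456 aligned coding bases, and coding bases 324 to 383 hold 2 of them.
Rps18: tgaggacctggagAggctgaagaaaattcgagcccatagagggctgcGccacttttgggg
Gm10260: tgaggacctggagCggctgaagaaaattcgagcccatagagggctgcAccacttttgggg
A read from such a stretch fits the member and its copy equally well or nearly so, and the deposited counts share it out by estimation. Over all libraries Rpl5 held 38527 counts and Gm15500 held 76355, Rpl29 held 2114 and Gm13841 held 13612, and Rps18 held 11530 and Gm10260 held 36986. Values of these members are therefore uncertain, and the fold changes given for Rpl5, Rpl29 and Rps18 are set beside those with copies added.

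Libraries held 19877877 to 27000388 counts. The 11 proximal tubule markers were present in every library, at a summed 8933 to 15790 CPM (counts scaled by TMM factors to a common library size, as CPM) in Tg26 mice, against 21268 to 22446 CPM in WT mice, which fits the labelled tissue. Tg26 replicate 1 stood apart: its 9 injured tubule markers summed to 5159 CPM, against 1508 and 1684 CPM in the other Tg26 mice and 503 to 609 CPM in WT mice. It also had the highest sums of the 9 macrophage (1149 CPM), 6 fibroblast (1886 CPM) and 6 cycling cell markers (95.6 CPM) among the 12 libraries. The median over the members in each comparison that uses Tg26 libraries is given without it as well.

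Ribosomal protein messages took a larger share of all counts in Tg26 mice. The 80 members held 2.04%, 1.46% and 1.27% of the counts of Tg26 replicates 1, 2 and 3, against 1.20%, 1.14% and 1.10% in WT replicates 1, 2 and 3. The groups did not overlap, although Tg26 replicate 3 was close to WT replicate 1, and the means were 1.59% ± 0.403 in Tg26 mice and 1.15% ± 0.0537 in WT mice (SD, n = 3 each). In mice given C16 the members held 1.32%, 1.35% and 1.40% in C16 Tg26 mice, against 1.22%, 1.14% and 1.24% in C16 WT mice, again without overlap. A share of counts also moves with whatever else fills a library, and the scaled levels did not separate the groups in the same way. Relative to the WT mean, the median member after TMM scaling stood at a log2 ratio of 0.42, 0.10 and -0.12 in Tg26 replicates 1, 2 and 3, against 0.07, 0.01 and -0.07 in WT replicates 1, 2 and 3. Tg26 replicate 1 was thus above all other libraries and Tg26 replicate 3 below all of them. The same log2 ratio was 0.08, 0.07 and 0.03 in C16 Tg26 mice and 0.02, -0.10 and 0.02 in C16 WT mice.

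**Figure D1:**
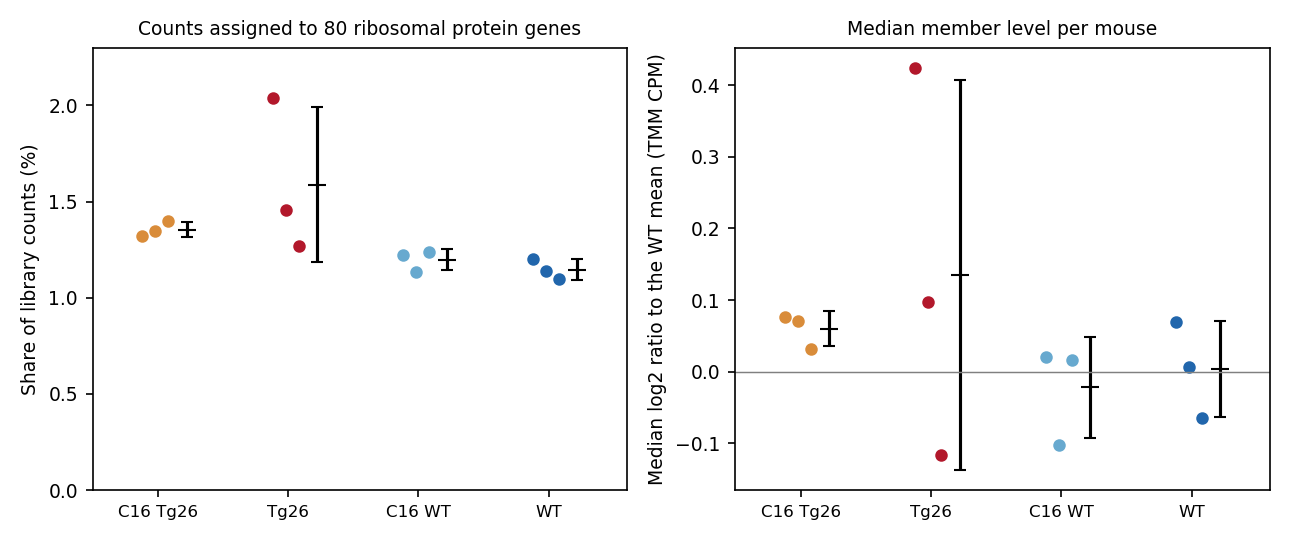
Left, share of each library's counts assigned to the 80 ribosomal protein genes (%); right, median log2 ratio of the 80 genes to the WT mean after TMM scaling. Each point is 1 mouse (replicates 1 to 3 from left to right), and bars give the mean ± SD (n = 3); Tg26 replicate 1 is highest on both axes, at 2.04% and 0.42.

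The 76 members with a mean of at least 10 CPM shared 1 order of mice in the Tg26 group, where all 76 were highest in replicate 1 and 75 of 76 were lowest in replicate 3. This same order was less uniform elsewhere: replicate 1 was highest for 37 of 76 members in C16 Tg26 mice, 42 in C16 WT mice and 56 in WT mice. Replicate 3 was lowest for 42, 4 and 53 members in these groups. Whether the other groups had a shared order of their own was not counted. In C16 WT mice the median member was lowest in replicate 2 (log2 ratio -0.10). The coefficient of variation of a member had a median of 18.5% over Tg26 mice, against 5.40% over WT mice, and it was 2.72% over C16 Tg26 mice, against 5.40% over C16 WT mice. Over Tg26 replicates 2 and 3 alone (n = 2) the median was 10.5%. A higher level in cortex can come from more RNA per cell or from other proportions of cells, which bulk samples cannot tell apart. Per length of transcript, Rpl10, which joins the large subunit late in its maturation in yeast, was the highest member (541 CPM per kb over the 12 libraries), followed by the stalk protein gene Rplp1 (463 CPM per kb). This ranking uses the counts of members alone, and it can change for genes such as Rps2, with 92.1% of counts in copies. The 4 members under 10 CPM were Rpl29 and the paralogs Rpl3l, Rps4l and Rpl6l.

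The first comparison, Tg26 against WT, asks what differed with the transgene in mice not given C16. No member passed the test: with edgeR, 0 members were called higher and 0 lower, whereas 15.7% of all genes tested were called higher and 10.5% lower at the same adjusted p of 0.05. At an unadjusted p under 0.05 there were 8 members higher and 1 lower, where 21.2% of all genes were higher and 17.9% lower, and DESeq2 called 1 member higher, Rpl12, and 16.9% of all genes. The log2 fold changes were positive for 71 of 80 members, with a median of 0.16, against a median of -0.01 for all genes tested. Their spread across the members with at least 10 CPM was small (SD 0.12). The error of a single member (median SE 0.12) includes differences between mice that the members shared, so it does not measure that spread. The median was 0.18 for the small and 0.12 for the large subunit. Without Tg26 replicate 1 the median of the members was -0.02, with 34 of 80 positive and 0 called higher, where 10.3% of all genes were called higher. Without Tg26 replicate 3 the median was 0.27 and 24 members were called higher, where 16.9% of all genes were. Leaving out Tg26 replicate 2 gave a median of 0.19 and 0 calls. Whether injury markers, which are highest in Tg26 replicate 1, have a part in this was not tested.

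**Figure D2:**
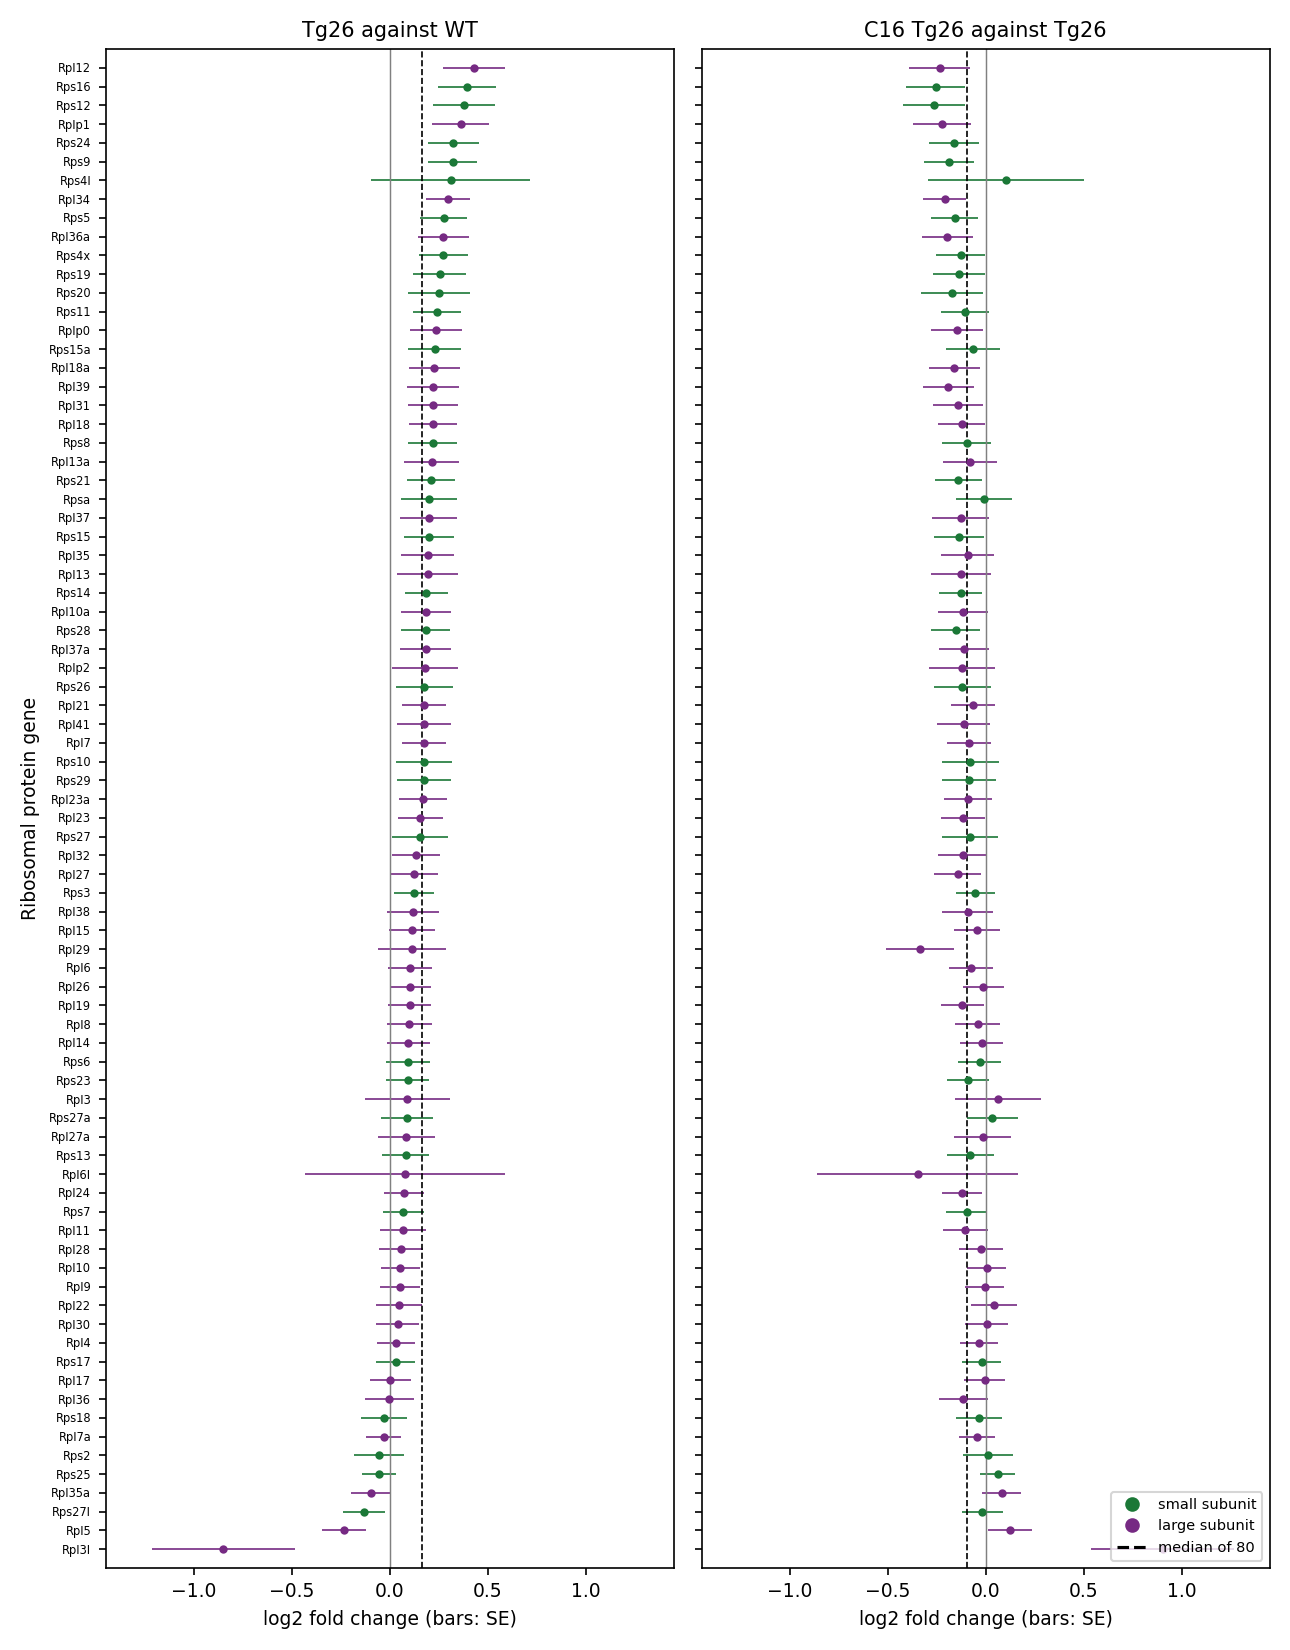
Log2 fold change of each of the 80 ribosomal protein genes, ordered by Tg26 against WT (left), and in the same order for C16 Tg26 against Tg26 (right). Points are edgeR estimates and bars their SE, green for the small and purple for the large subunit, and dashed lines mark the medians (0.16 on the left, -0.09 on the right); Rpl3l lies far from the other genes in both panels.

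The highest fold changes belonged to Rpl12, Rps16 and Rps12. Rpl12, a protein at the base of the stalk of the large subunit, had 190.8, 127 and 112 CPM in Tg26 mice, against 105, 112 and 102 CPM in WT mice, so that Tg26 replicate 1 stood alone and Tg26 replicate 3 lay within the WT range. Its log2 fold change was 0.43 ± 0.16 (SE, adjusted p = 0.0662), and 0.16 without Tg26 replicate 1. Rps16, a small-subunit protein, had 196, 149 and 120.2 CPM in Tg26 mice, against 125, 119.8 and 109 CPM in WT mice, with 1 Tg26 mouse inside the WT range and a log2 fold change of 0.39 ± 0.15 (adjusted p = 0.0737), or 0.18 without Tg26 replicate 1. Rps12, also of the small subunit, had 251, 177 and 143 CPM in Tg26 mice, against 155, 145 and 139 CPM in WT mice, with a log2 fold change of 0.38 ± 0.16 (adjusted p = 0.0998), or 0.12 without Tg26 replicate 1. In each of the 3 genes the order of the Tg26 mice was that of the median member. Relative to the median member, Rplp1 and Rps24 followed (0.20 and 0.16 above it on the log2 scale), and Rps25 (-0.22) and Rpl35a (-0.26) stood below it. The value of Rpl35a is uncertain, because copies held 42.5% of its counts and theirs together. Without overlap between the groups, Tg26 mice were above WT mice in 2 members, Rps4x and Rps9, whereas this held for 21.5% of all genes tested. Rps4x, the X-linked small-subunit gene, had 377, 287 and 256.03 CPM in Tg26 mice, against 251, 255 and 255.94 CPM in WT mice, a gap that is under 1 CPM at its narrowest (adjusted p = 0.131).

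**Figure D3:**
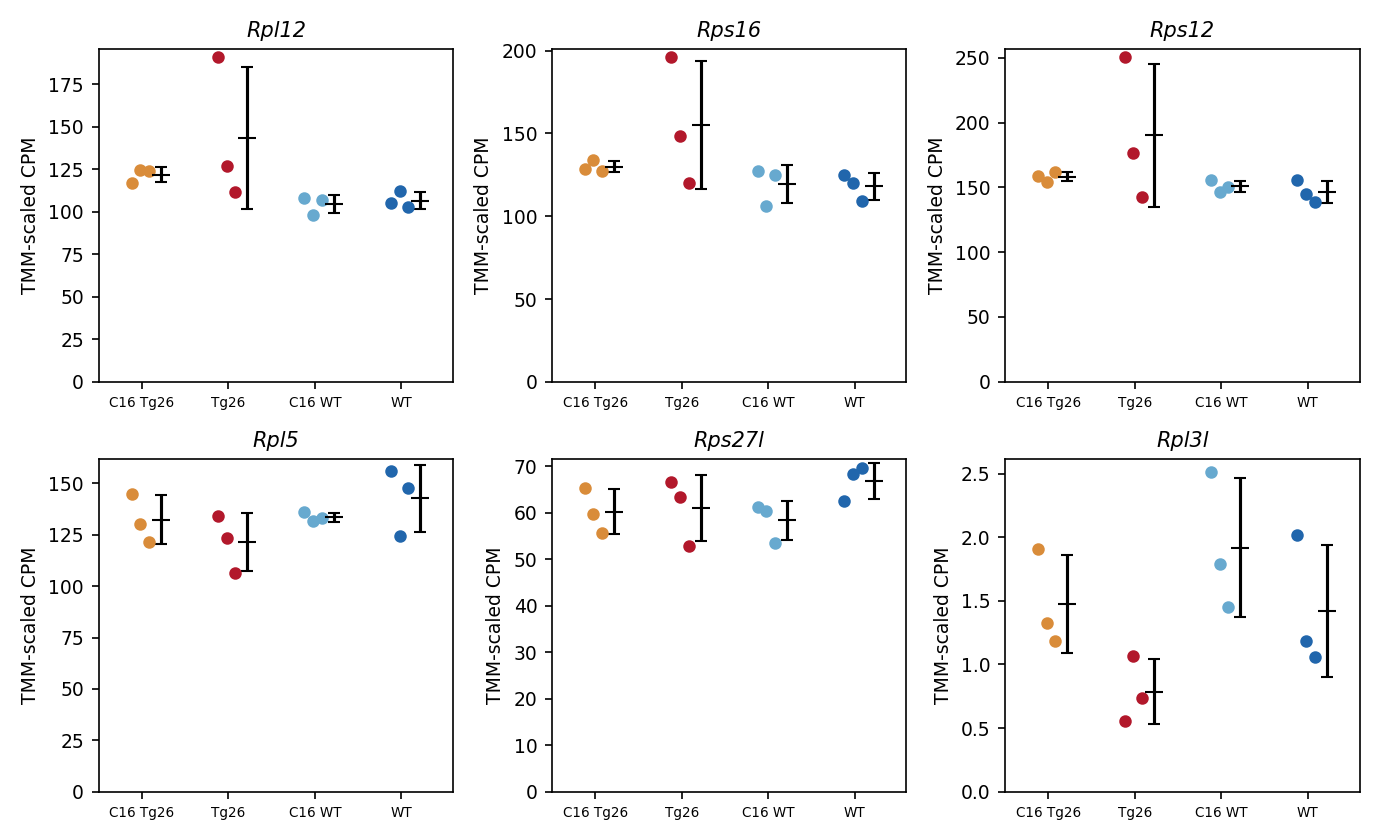
TMM-scaled CPM of 6 ribosomal protein genes in each mouse (points, replicates 1 to 3 from left to right) with the mean ± SD of each group (n = 3). The upper genes had the highest log2 fold changes in Tg26 against WT mice and follow Tg26 replicate 1 (190.8 CPM for Rpl12); the lower genes had the lowest, with Rpl3l at 0.558 to 1.07 CPM in Tg26 mice.

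Among members with known roles, the acidic stalk proteins that recruit translation factors were close to the median change or above it. Rplp0, with a log2 fold change of 0.24, had 599.7, 468 and 395 CPM in Tg26 mice, against 432, 419.6 and 389.8 CPM for WT. For Rplp1 the log2 fold change was 0.36, with a mean of 268 ± 67.2 CPM in the Tg26 group, against 209 ± 18.5 CPM in the WT group (SD, n = 3 each), and its partner Rplp2 had 0.18. Rps6, the substrate of the S6 kinases that act below mTOR, had a log2 fold change of 0.09, with 325, 268 and 235 CPM in Tg26 mice, against 266, 265 and 245 CPM in WT mice. Rpsa, which is also known as a laminin receptor, had 0.20, Rps19, a gene mutated in human Diamond-Blackfan anaemia, 0.25, and Rpl13a, known from translational silencing after interferon in human cells, 0.21. Smaller values belonged to Rpl11 (0.07), which with Rpl5 binds Mdm2 when ribosome assembly fails, Rpl10 (0.05), Rpl22 (0.05) and Rps27a (0.09), whose product is made fused to ubiquitin. Rpl39 of the peptide exit tunnel had 0.22, Rpl41, the shortest of the proteins, 0.17, and Rps27 0.15. None of these differences passed the test, and their adjusted p ranged upward from 0.0928 for Rplp1.

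The lowest fold changes in Tg26 mice were those of Rpl3l, Rpl5 and Rps27l. Rpl3l, the paralog of Rpl3 that replaces it in heart and skeletal muscle, was barely expressed, with 0.558, 1.07 and 0.736 CPM in Tg26 mice, against 2.01, 1.182 and 1.06 CPM in WT mice. The groups overlapped at their edges (1.07 CPM in Tg26 replicate 2 and 1.06 CPM in WT replicate 3), and the log2 fold change was -0.85 ± 0.37 (adjusted p = 0.108). Rpl5 had 134, 124 and 107 CPM in Tg26 mice, against 156, 125 and 148 CPM in WT mice, with a log2 fold change of -0.23 ± 0.11 (adjusted p = 0.15). With its copies added, Rpl5 had 437, 388 and 340 CPM in Tg26 mice, against 396, 380.1 and 410 CPM in WT mice. The log2 fold change was then -0.03 (edgeR, adjusted p = 0.871). The median member stood at 0.16 with all copies added, so Rpl5 was nearer to the other members but still below their median. For Rps27l, the paralog of Rps27 that p53 activates in human cells, Tg26 mice had 66.7, 63.3 and 52.9 CPM, against 62.5, 68.3 and 69.7 CPM for WT, and the log2 fold change was -0.13 (adjusted p = 0.385). Rps27l thus differed in sign from Rps27, a difference between paralogs that was not tested.

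The balance of the subunits does not depend on how libraries are scaled, because both sums come from the same library. The summed CPM of large-subunit members divided by that of small-subunit members was 1.59, 1.63 and 1.66 in Tg26 mice, against 1.67, 1.69 and 1.70 in WT mice. It was 1.66, 1.65 and 1.62 in C16 Tg26 mice, against 1.67, 1.69 and 1.68 in C16 WT mice. All 6 libraries with the transgene were below all 6 without it, and Tg26 replicate 1 was the lowest. Several marker sums separated the genotypes in the same way. The sums were higher in all 6 libraries with the transgene for macrophage (717 to 1149 CPM in Tg26 mice against 105 to 136 CPM in WT mice, and 292 to 590 CPM in C16 Tg26 mice against 135 to 179 CPM in C16 WT mice), fibroblast, injured tubule, T cell and plasma cell markers and lower for proximal tubule markers, and their part in the result was not tested. The step is small, a mean of 1.62 ± 0.0335 in Tg26 mice against 1.69 ± 0.0148 in WT mice (SD, n = 3 each). With the copies added the ratio was 1.54 to 1.59 in Tg26 mice against 1.61 to 1.64 in WT mice, and 1.56 to 1.59 in C16 Tg26 mice against 1.597 to 1.62 in C16 WT mice. The order of genotypes was kept, with C16 WT replicate 3 next to the highest Tg26 library.

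**Figure D4:**
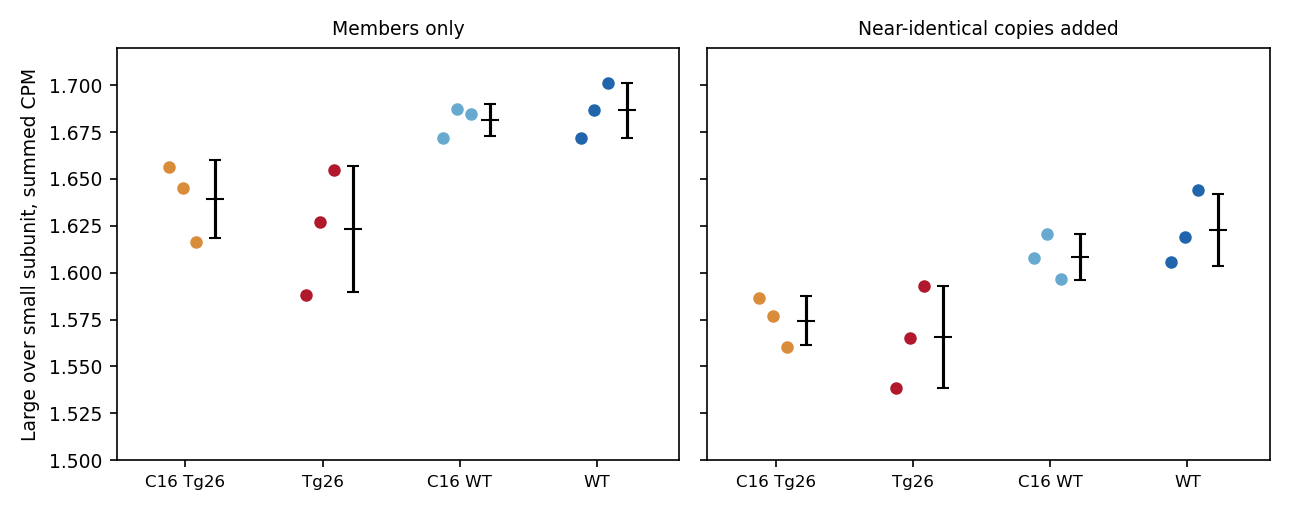
Summed CPM of 48 large-subunit genes over that of 32 small-subunit genes in each mouse, from the members alone (left) and with near-identical copies added (right); the axis does not start at 0. Points are mice and bars the mean ± SD (n = 3); the libraries with the transgene lie below those without it, 1.59 to 1.66 against 1.67 to 1.70 among mice not given C16 on the left.

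The second comparison, C16 Tg26 against Tg26, asks what the PKR inhibitor changed in transgenic mice. No member was called by edgeR or by DESeq2, and 1 had an unadjusted p under 0.05 with edgeR, Rpl3l. Of all genes tested 0.758% were called higher and 2.66% lower. The median log2 fold change was -0.09, against -0.01 for all genes tested, and 11 of 80 members were positive. Both Tg26 comparisons share the Tg26 libraries, and without Tg26 replicate 1 the median was 0.06, with 69 of 80 positive. Rps12 had 159, 154 and 161 CPM in C16 Tg26 mice, against 251, 177 and 143 CPM in Tg26 mice (log2 fold change -0.26, adjusted p = 0.32, or -0.01 without Tg26 replicate 1), all C16 Tg26 mice lying between the second and the third Tg26 mouse. Rpl12 likewise had 117, 125 and 124 CPM in C16 Tg26 mice, inside the Tg26 range (log2 fold change -0.24).

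Rpl3l and Rpl29 were the members whose C16 Tg26 and Tg26 libraries did not overlap. Rpl3l had 1.91, 1.32 and 1.19 CPM in C16 Tg26 mice, all above the 0.558, 1.07 and 0.736 CPM of Tg26 mice, with a log2 fold change of 0.90 ± 0.36 (adjusted p = 0.147). Rpl29, a large-subunit protein, had 6.46, 6.79 and 5.15 CPM in C16 Tg26 mice, all below the 7.87, 8.46 and 6.85 CPM of Tg26 mice (log2 fold change -0.33, adjusted p = 0.253). Being higher without overlap held for 1 of 80 members and for 12.4% of all genes tested, and being lower for 1 of 80 and for 15.1%. With copies added the log2 fold change of Rpl29 was 0.01. Rpl5 had a log2 fold change of 0.12 (0.05 with its copies), Rps4l 0.10 and Rpl6l -0.35, the last 2 at under 4 CPM in every library.

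In mice without the transgene no member passed the test for C16. For C16 WT against WT, edgeR called 0 members and 0% of all genes higher, and 0 members and 0% of all genes lower. A single member, Rpl6l, had an unadjusted p under 0.05, and DESeq2 called 0 members. The median log2 fold change was -0.02, with 29 of 80 positive, and its sign turned without WT replicate 1 (0.013) or C16 WT replicate 2 (0.021). Rpl6l, a paralog of Rpl6 at the limit of detection, had 0.140, 0.211 and 0.234 CPM in C16 WT mice, against 1.01, 0.295 and 0.241 CPM in WT mice, so that its log2 fold change of -1.38 leans on WT replicate 1. Rps27l had 61.2, 60.3 and 53.5 CPM in C16 WT mice, all below WT mice, and a log2 fold change of -0.20 (adjusted p = 0.69). Rps18 had -0.11 (-0.02 with copies), Rpl41 0.11, Rpl29 0.16 (0.07 with copies) and Rpl3l 0.44.

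The next comparisons set C16 Tg26 mice against mice without the transgene. Against WT mice edgeR and DESeq2 called 0 members, and 0 had an unadjusted p under 0.05 with edgeR, where edgeR called 1.35% of all genes higher and 0.236% lower. The median log2 fold change was 0.07 (63 of 80 positive), or 0.027 without WT replicate 3, and 20 of 80 members (25%) were higher in every C16 Tg26 mouse than in every WT mouse, against 14.1% of all genes tested. Against C16 WT mice 0 members were called by either tool and 0 had an unadjusted p under 0.05 with edgeR, where edgeR called 0.69% of all genes higher and 0.00621% lower. The median was 0.08 (68 of 80 positive), or 0.036 (52 of 80) without C16 WT replicate 2, and 23 of 80 members (28.8%) lay above without overlap, against 11.3% of all genes. Of these 23, 12 were among the 32 small-subunit members and 11 among the 48 of the large subunit. Rpl12 had a log2 fold change of 0.22 ± 0.16 against C16 WT mice (adjusted p = 0.812), with 117, 125 and 124 CPM in C16 Tg26 mice against 108, 98.3 and 107 CPM in C16 WT mice. Rpsa had 437, 455 and 471 CPM in C16 Tg26 mice, against 437, 400.4 and 355 CPM for WT, and its log2 fold change was 0.19. Both counts use the same C16 Tg26 libraries, which differed little among themselves (median coefficient of variation 2.72%). The outermost values were at low levels: in C16 Tg26 against C16 WT mice Rpl6l had a log2 fold change of 1.11, Rps4l 0.41, Rpl3l -0.38 and Rpl29 -0.38 (-0.04 with copies), and in C16 Tg26 against WT mice Rps4l had 0.41, Rpl6l -0.27 and Rpl29 -0.22 (0.03 with copies).

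The interaction asks whether C16 acted differently in the genotypes. edgeR called 0 members and 0% of all genes in either direction, 0 members had an unadjusted p under 0.05, and DESeq2 called 0 members. The median of the interaction was -0.07 on the log2 scale, and it was 0.09 without Tg26 replicate 1. The lowest values were those of Rpl29 (-0.49, but -0.06 with copies), Rps12 (-0.31) and Rplp1 (-0.28), and the highest those of Rpl6l (1.03), Rpl3l (0.47) and Rpl5 (0.22, but 0.09 with copies).

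Rpl3, which lies beside the peptidyl transferase centre, showed how far the split between a gene and its copy can move a value. Its copy Rpl3-ps1 matched it at 99.8% of bases. Rpl3 took 75.6% of the counts of the pair in C16 Tg26 replicate 2 and 76.6% in C16 WT replicate 3, but 49.8% to 55.1% in the other 10 libraries. These libraries accordingly had 288 and 269 CPM of Rpl3, and the remaining 10 had 171 to 241 CPM. With copies added, C16 Tg26 replicate 2 had 381 CPM, against 315 and 360 CPM in the other C16 Tg26 mice, and C16 WT replicate 3 had 351 CPM, against 327 and 328 CPM in the other C16 WT mice. The sums of these libraries lay within the range of the other 10 (315 to 452 CPM), while Rpl3 alone had the largest coefficient of variation of any member with at least 10 CPM in C16 Tg26 mice (30.7%) and in C16 WT mice (27.1%). Why the split differed in these libraries was not tested.

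The promoters of the members were searched for shared letters in RefSeq windows (GRCm38.p6) of 300 bases, 250 before and 50 after the start, which were matched for 58 members. The letters CCGGAAG on either strand, part of the site of GABPA, an ETS factor known to bind ribosomal protein promoters in human cells, stood in the windows of 24 of 58 members (41.4%), against 9.93% of all 27025 genes with windows. CTTTCC, a pyrimidine tract, stood in 51.7% of members and 29.3% of all genes, AAGATGG, part of the YY1 site, in 15.5% and 7.28%, and TATAAA in 10.3% and 15.7%. The motifs were searched on both strands and CCGGAAG can share end bases with CTTTCC and AAGATGG, as can TATAAA with AAGATGG. Of named members, 5 held CCGGAAG before the start, and 30 bases around it are shown on the strand of the gene with the motif in capitals.
Rpl41 (chr10:128549206-128549235, - strand): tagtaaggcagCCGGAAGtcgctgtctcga
Rplp2 (chr7:141447532-141447561, + strand): gaaatgtcttcCTTCCGGtgcacccttttc
Rps18 (chr17:33955804-33955833, - strand): agaaggccgaaCCGGAAGttatagctccgg
Rps6 (chr4:86857440-86857469, - strand): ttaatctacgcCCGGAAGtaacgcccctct
Rpsa (chr9:120127567-120127596, + strand): cgccccagctaCTTCCGGcctggggtctgt
The letters did not mark the members with the higher values. Among members with at least 10 CPM, the median log2 fold change in Tg26 against WT mice was 0.12 for the 24 with CCGGAAG and 0.18 for the 33 without it, and the ranges overlapped (-0.13 to 0.30 and -0.23 to 0.43).

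Members differ from most genes in having short transcripts (median 882 nt, against 2821 nt for all genes tested). Other genes of up to 1000 nt and at least 10 CPM, 483 in number, had a median log2 fold change of -0.16 in Tg26 against WT mice and 0.07 in C16 Tg26 against Tg26 mice, opposite in sign to the members in both. Only the members were left out of this set. Copies of members, other ribosomal proteins such as Fau and mitochondrial ones such as Mrps34 were not. A part of transcript length in the values of the members was not tested. Across the 76 members with at least 10 CPM, all from the same libraries, the fold change in Tg26 against WT mice had a rank correlation of 0.02 with length and 0.05 with level.

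Ribosomal proteins outside the symbol rule had values in the range of the members. The log2 fold change in Tg26 against WT mice was 0.14 for Rps3a1, 0.21 for Rack1, the scaffold protein of the small subunit, 0.06 for Fau and -0.08 for Rpl36al, and none passed the test. Of 19 elongation factors and other TOP messages, 0 were called by edgeR or DESeq2. At an unadjusted p under 0.05 with edgeR 21.2% of all genes were higher and 17.9% lower, against 1 and 2 of these 19. Their median was -0.09, with 6 of 19 positive, and with library sizes alone it was 0.22, below the 0.29 of all genes. Those with the smallest adjusted p were Eif4b (-0.29), Hnrnpa1 (0.29), Eif3h (-0.19) and Eif3e (-0.17).

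Mitochondrial ribosomal proteins, which translate the messages of the mitochondrial genome, had lower values. Of 78 such genes 17 fell in Tg26 against WT mice and 0 rose (edgeR), where 10.5% of all genes were called lower, and the median log2 fold change was -0.23. Mrps9 averaged 30.5 ± 0.761 CPM in the Tg26 group, against 38.4 ± 2.21 CPM in the WT group (SD, n = 3 each), and its log2 fold change was -0.34 (adjusted p = 0.00785). Mrpl9 had a log2 fold change of -0.42 and a mean of 37.6 ± 3.42 CPM in the Tg26 group, against 50.2 ± 1.32 CPM in the WT group, and Mrps34 (-0.45) and Mrpl32 (-0.41) were lower by as much. In C16 Tg26 against Tg26 mice 72 of the 78 were positive, with a median of 0.16 and 0 calls by edgeR. At an unadjusted p under 0.05 with edgeR, 22 of the 78 were higher, where 1715 of 16094 genes tested were. DESeq2 called 7 of the 78 higher, and 4.5% of all genes. The median in Tg26 against WT mice was -0.24, with 7 of 78 genes lower, without Tg26 replicate 1 (6.02% of all genes lower), and -0.15, with 9 of 78 lower, without Tg26 replicate 3 (12.6% of all genes). It was -0.17 without WT replicate 1, with 4 of 78 lower (1115 of 16540 genes tested). Without WT replicate 2 it was -0.24, with 7 of 78 lower (671 of 16453 genes). When Tg26 and WT libraries were fitted alone it was -0.21, with 1 of 78 lower (242 of 15652 genes). With library sizes alone it was 0.08, with 0 lower and 4 higher (274 lower and 5267 higher of 16094 genes). The median of the cytosolic members was 0.48 with library sizes alone, and that of all genes 0.29. Of these 80 members 59 were then called higher, against 32.7% of all genes. A change of scaling moves all genes of a library alike. The position of the members relative to all genes could therefore hardly differ between scalings. Without Tg26 replicate 1 (TMM) the members had a median of -0.02, against -0.03 for all genes.

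**Figure D5:**
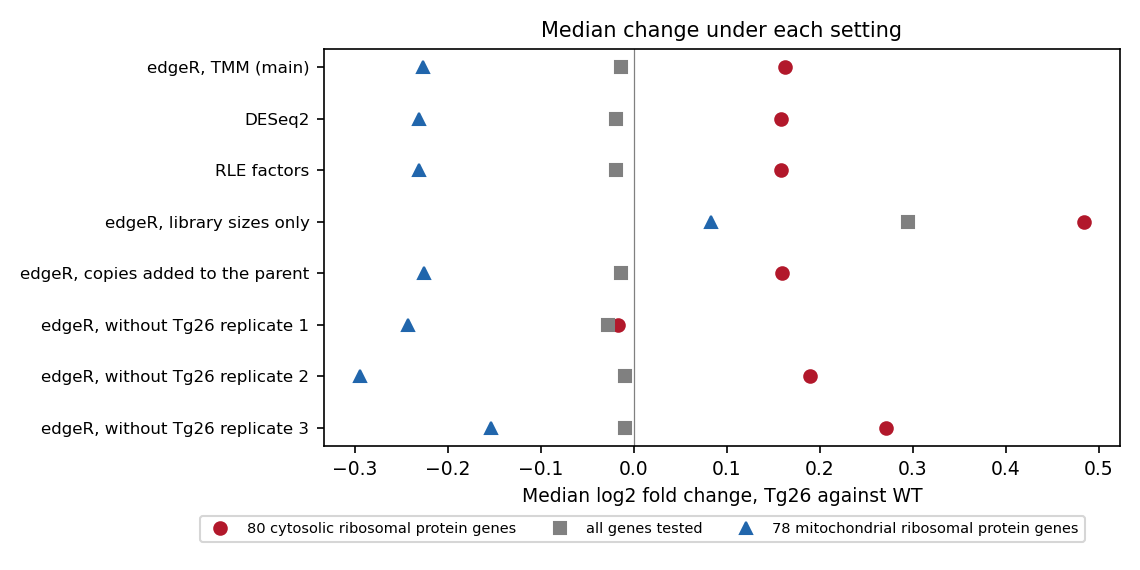
Median log2 fold change in Tg26 against WT mice (horizontal axis) of the 80 cytosolic ribosomal protein genes (circles), all genes tested (squares) and 78 mitochondrial ribosomal protein genes (triangles) under 8 settings (rows). Circles lie right of squares in every row, by little without Tg26 replicate 1 (-0.02 against -0.03), and triangles lie left of squares.

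Among genes that make or regulate ribosomes, few passed the test. Shares of 15.7% higher and 10.5% lower over all genes stand beside the counts for Tg26 against WT mice that follow. Of 28 regulators of TOP translation and ribosomal protein transcription, 2 rose and 4 fell in Tg26 against WT mice. Mtor, the kinase that controls translation of TOP messages, fell to 224 ± 95.2 CPM in Tg26 mice, against 451 ± 80.5 CPM in the WT group, with a log2 fold change of -1.01 ± 0.28 (SE, adjusted p = 0.0208), and had 305 ± 39.2 CPM in C16 Tg26 mice. The proteins that block the cap-binding factor and are released by mTOR moved apart. Eif4ebp1 rose (log2 fold change 1.19, adjusted p = 0.0171, or 0.63 and 0.0479 without Tg26 replicate 1) and Eif4ebp3 fell (-2.02, adjusted p = 0.00844). Eif4ebp3 averaged 99.4 CPM in WT mice, against 24.6 CPM in Tg26, 17.2 CPM in C16 WT and 13.4 CPM in C16 Tg26 mice. The mean of Eif4ebp3 was thus also low in C16 WT mice, but C16 WT against WT was not called (edgeR, adjusted p = 0.53). Mycl, a Myc family factor, rose (1.80), and Mxi1 (-0.45), a Myc antagonist, and Larp4 (-0.43) fell. Of 87 ribosome biogenesis factors, 5 fell (Las1l -0.33, Rcl1 -0.44, Ddx52 -0.26, Riok2 -0.33 and Nop16 -0.36) and 1 rose (Heatr1, 0.32). Of 20 genes of the RNA polymerase I machinery, which transcribes ribosomal RNA, Taf1c rose (0.63) and 0 fell. Of 28 initiation factors 3 fell and 0 rose: Eif2s3x (-0.30), a subunit of the factor that PKR phosphorylates on another subunit, Eif4e (-0.28), which binds the cap, and Eif5 (-0.44). In C16 Tg26 against Tg26 mice edgeR called 0 genes of these 4 lists, and 0.758% of all genes higher and 2.66% lower. At an unadjusted p under 0.05, 1715 of 16094 genes tested were higher and 2411 lower. Among them were 2 regulators higher and 4 lower, 4 biogenesis factors higher and 2 lower, 5 initiation factors higher and 0 genes of the polymerase I machinery. DESeq2 called 1 regulator higher and 2 lower, where it called 724 of all 16094 genes higher and 1235 lower. With library sizes alone the fits for Tg26 against WT mice gave 0 lower calls among initiation factors, biogenesis factors and the polymerase I machinery and 2 among the regulators, against 6, 28, 8 and 8 higher calls, where 32.7% of all genes were called higher. Without Tg26 replicate 1 the log2 fold change of Mtor was -0.77 (adjusted p = 0.0565), and Larp4, Nop16, Riok2, Heatr1, Taf1c, Eif4e and Eif5 were also above an adjusted p of 0.05 with edgeR.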

How the data were processed

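Bulk mRNA-seq of outer kidney cortex of 12 mice (4 groups of 3) was analysed. Per the submitters' processing notes, bcl2fastq 2.17, cutadapt 1.18, STAR 2.7.0f and RSEM 1.3.1 were used with mm10. The authors deposited expected counts per gene (estimated by RSEM, not normalized, already whole numbers), in which reads that fit several genes are divided by estimation. Total counts per library ranged from 19877877 to 27000388, which limits precision for members with few counts. Whether same-group mice shared litters is not given in the sources used here.

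Genes passing filterByExpr (a minimum count of 10, minimum total of 15; 16094 of 55450) were fitted over the 4 groups with edgeR 4.0.16 (R 4.3.3, TMM factors, quasi-likelihood test), with Benjamini-Hochberg adjustment over all genes tested and calls at an adjusted p under 0.05. Medians, shares and ratios over members are descriptions. Copies were found with BLAST+ 2.17.0 in GENCODE M21. The test was run on simulated data. Alternatives were DESeq2 1.42.0, other scalings and filters, a replicate block, the 2 groups alone, copies added and each library left out. The members and lists were chosen with earlier results of these data known. Named genes were members called in a comparison, the 3 highest and 3 lowest fold changes in each, a fixed list of members with known roles, and up to 4 genes per other list with the smallest adjusted p. Rps9, Rps3a1, Mxi1, Larp4, Riok2 and Nop16 were named after their values were seen. No sample or column was left out.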

Additional observations from a re-analysis of the deposited data

How the results depend on the processing

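Leaving out 1 library at a time moved the median log2 fold change of the members in Tg26 against WT mice from -0.017 to 0.27 and the number of members called higher from 0 (every other library) to 24 (Tg26 replicate 3). In C16 Tg26 against Tg26 mice the median ranged from -0.22 to 0.06, and for the interaction from -0.19 to 0.09, with Tg26 replicate 1 at the upper end of both. The median ranged from -0.047 to 0.021 in C16 WT against WT, from 0.027 to 0.10 in C16 Tg26 against WT and from 0.036 to 0.092 in C16 Tg26 against C16 WT mice. The share of counts in Tg26 mice ranged from 1.36% to 1.75%. With DESeq2 1 member, Rpl12, was called higher in Tg26 against WT mice. With library sizes alone 59 were, the medians were 0.48 in Tg26 against WT, 0.052 in C16 WT against WT, 0.24 in C16 Tg26 against WT and 0.18 in C16 Tg26 against C16 WT mice, and the log2 fold changes turned sign for Rpl5 (0.081) and Rps27l (0.18) in Tg26 against WT mice and for Rpl5 (-0.019) and Rps4l (-0.048) in C16 Tg26 against Tg26 mice. Scaling by library size moved the median of all genes to 0.29 in Tg26 against WT mice. Leaving out 1 library, Rps4l in C16 Tg26 against Tg26 mice ranged from -0.15 (without Tg26 replicate 3) to 0.44 and was -0.10 without C16 Tg26 replicate 2, and Rpl29 turned sign with copies added (0.0066), an alternative chosen after seeing the data. The mean share of counts held by members was 1.44% in C16 Tg26, 1.28% in C16 WT and 1.22% in WT mice with named pseudogenes, 1.47%, 1.31% and 1.26% in the same order without the mitochondrial genome in the total, and 1.54%, 1.36% and 1.302% with all copies. The cause of these changes was not tested beyond the library or counts each setting removes or adds. Of 189 values under settings other than leaving out a library, 174 were kept by the following rule. A count of members called was kept if it stayed 0, as in the main fit. A median or share was kept if it moved by less than 1 SD over the mice of a group. For medians set against Tg26 mice that SD was 0.27. A median of -0.24 with library sizes alone, against -0.09, in C16 Tg26 against Tg26 mice thus counted as kept.

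Deviations from the group mean had r from -0.23 to 0.23 between same-numbered mice of different groups (18 pairs, median 0.05). Between mice with different numbers r was -0.34 to 0.34 (36 pairs, median -0.05). The ranges overlapped, and the numbers were not taken to pair the mice. With a replicate block the median in Tg26 against WT mice was 0.16 and in C16 Tg26 against Tg26 mice -0.09, with 0 members called in both, and over all genes it left 0 calls in C16 Tg26 against Tg26 mice, against 122 higher and 428 lower without it. A covariate for sex could not be fitted, because all 12 libraries held Y-linked transcripts (at least 138.5 CPM summed over 4 genes). Rpl3l, Rps4l and Rpl6l, which had few counts, are limited by depth.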
